A study of Mus musculus with 2 samples.

Results

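A set of 10 genes that carry the signal from double-stranded RNA to the transcription factor IRF3 was followed in 4T1 cells. The genes were taken from a named list, namely the sensors Tlr3, Ddx58 and Ifih1, the adaptors Ticam1, Mavs and Traf3, the kinases Tbk1 and Ikbke, the factor Irf3 and the interferon gene Ifnb1. All 10 were found among the 21911 genes of the deposited table. The rule that chose them used no measured value, but the list was made with earlier results of these data known. 4T1 is a mouse breast cancer line that spreads to the lung. RNA was sequenced from 4T1 cells kept for 48 h with PBS, the vehicle control, or with potassium oxalate, 1 library each, and the labels give no other treatment or genetic change. The labels state the oxalate dose as 20 mM in the treatment protocol and as 20 microM in the sample characteristics, and the methods of the study give the micromolar dose. The study examined TLR3 and IRF3 in alveolar epithelial cells of the lung, whereas the cells sequenced here are the cancer cells themselves, and the RNA data address how oxalate acts on them.

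Cells detect double-stranded RNA both in endosomes and in the cytosol. TLR3 senses it inside endosomes and signals through the adaptor TRIF, which Ticam1 encodes. RIG-I (Ddx58) and MDA5 (Ifih1) sense it in the cytosol and signal through MAVS on mitochondria. Both routes recruit TRAF3 and the kinases TBK1 and IKKε (Ikbke), which phosphorylate IRF3, and IRF3 then moves to the nucleus and turns on interferon beta (Ifnb1) and antiviral genes. IRF3 is controlled by phosphorylation, which RNA levels do not show.

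The values are FPKM, reads scaled to transcript length and to the depth of the library, so that levels of different genes can be compared within a library. From the spacing of low values, the PBS library held an estimated 56700000 reads and the oxalate library 36500000. With 1 library per group no test of the treatment was possible and no difference has a replicate check. Each ratio is given with an exact (Clopper-Pearson) 95% interval from the estimated reads, which covers counting error only and is therefore narrower than the error of the experiment. For 10267 genes the mean FPKM was 1 or more, and the ratio of oxalate to PBS exceeded this counting error in 48.8% of the 10261 of them with a known length, so an interval that leaves out a ratio of 1 is common. The label of the cells was checked against marker genes. All 6 epithelial markers (Epcam, Krt8, Krt18, Krt7, Cdh1 and Cldn4) were at 125.33 FPKM or more in both libraries. Of 7 leukocyte markers, 5 were listed at 0, and the sum of the 7 was 4.99 FPKM in PBS and 5.24 in oxalate, of which Csf1r made up 4.93 and 5.18. The 3 fibroblast markers summed to 2.19 and 2.26 FPKM and the 3 endothelial markers to 0.08 and 0.11. In RNA from a whole culture, fewer cells that express a gene and less RNA per cell cannot be told apart.

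The sequences with which the study knocked out Tlr3 and knocked down Irf3 in lung epithelial cells are shown first, to place them within the annotated genes. The values used here are per gene and do not show which transcripts the reads came from. Positions are on GRCm38. The CRISPR guide to Tlr3 matched chr8:45399159-45399178 on the plus strand, opposite to the gene. This site lies in the coding sequence, in exon 6 of the 7 exons of the longest coding transcript, and was present in 3 of 7 coding transcripts. The hairpin target in Irf3 matched chr7:44999982-45000002 on the plus strand, the strand of the gene, in the coding sequence of exon 3 of 8, and was present in 4 of 7 coding transcripts. The capitals mark the adjacent PAM, which Cas9 needs and which is read from the reference.
Tlr3 guide with PAM: gttgggcgttgttcaagaggAGG
Irf3 hairpin target: cggaaagaagtgttgcggtta
The promoters of Ddx58 and Ifih1 are shown because these were the members whose promoters held the interferon response core GAAANNGAA. The core was searched on both strands of RefSeq promoter windows (GRCm38.p6, 250 bases before to 50 after the start site), counting overlapping matches. It occurred in 2812 of 32851 windows, or 8.56%, and in 2 of the 10 members' windows. In Ddx58 (chr4:40239776-40240075, minus strand) it occurred once, on the opposite strand, with its first base at position 4 of the transcript. Ifih1 (chr2:62646206-62646505, minus strand) held it at position 33 on the gene's own strand and at position -112 on the opposite strand, counted from 1 at the start site. Capitals mark these matches, and a match of letters does not show that a factor binds there.
Ddx58 promoter: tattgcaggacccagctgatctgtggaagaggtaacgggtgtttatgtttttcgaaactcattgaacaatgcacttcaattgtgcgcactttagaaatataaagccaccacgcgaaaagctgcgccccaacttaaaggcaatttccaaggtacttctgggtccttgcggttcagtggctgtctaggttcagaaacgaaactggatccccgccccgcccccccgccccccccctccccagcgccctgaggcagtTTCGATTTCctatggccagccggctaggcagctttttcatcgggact
Ifih1 promoter: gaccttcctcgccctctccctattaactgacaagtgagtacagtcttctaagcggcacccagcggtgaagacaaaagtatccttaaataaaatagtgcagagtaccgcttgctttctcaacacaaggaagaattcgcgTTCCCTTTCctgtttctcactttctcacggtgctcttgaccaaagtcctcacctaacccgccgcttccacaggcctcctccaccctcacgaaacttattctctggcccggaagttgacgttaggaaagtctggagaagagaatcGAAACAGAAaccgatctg

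The genes fell into a group of well-expressed signalling components, a pair of weakly expressed ones, and an interferon gene listed at 0. In the PBS library the order was Ikbke, Mavs, Irf3, Tbk1, Traf3, Tlr3, Ddx58, Ticam1, Ifih1 and Ifnb1. Mavs, Irf3 and Tbk1 stood at 26.70, 26.47 and 26.42 FPKM and neighbours among these 3 did not differ beyond counting error, with Mavs at 1.01 times Irf3 (0.952 to 1.07) and Irf3 at 1.00 times Tbk1 (0.941 to 1.07). The other neighbours down to Ifih1 differed by more than counting error. In the oxalate library 5 genes held another rank: Tbk1 moved ahead of Mavs and Irf3, and Tlr3 stood level with Traf3 at 1.01 times its FPKM (0.957 to 1.07). Neighbours among Tbk1, Mavs and Irf3 were again within counting error, with Tbk1 at 1.06 times Mavs (0.997 to 1.12). These intervals between genes were taken with mean coding lengths only. With the longest coding transcript, the estimated reads of Tbk1 in oxalate were 3302 in place of 1892. More reads narrow an interval, so the tie of Tbk1 and Mavs depends on the length used.

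**Figure D1:**
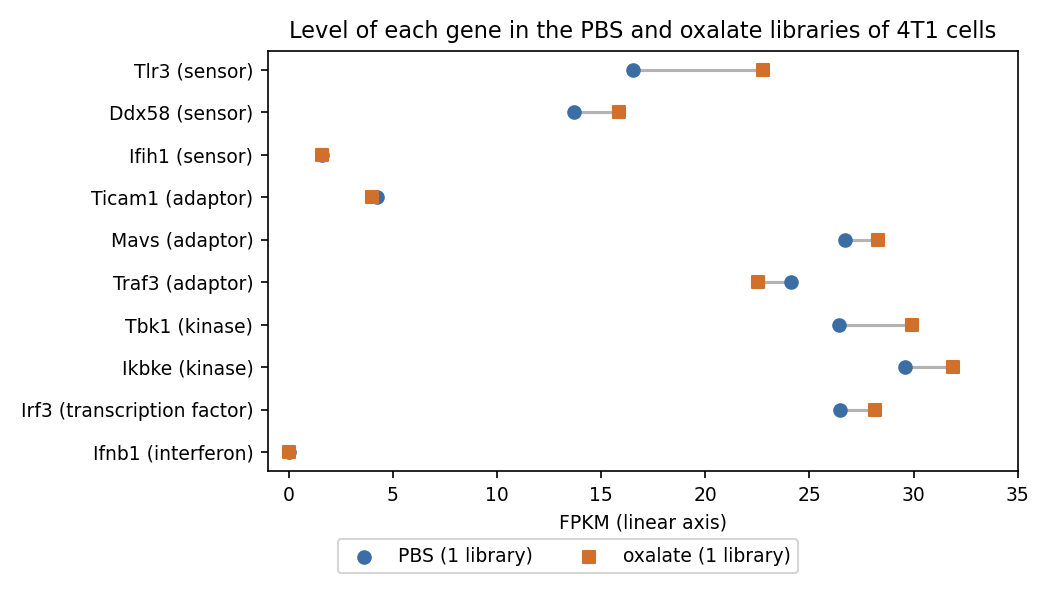
Level of the 10 genes in FPKM on a linear axis, with circles for the PBS library and squares for the oxalate library, each a single library without error bars. Tlr3 shows the longest line, from 16.52 to 22.79 FPKM, while Ifih1 stays at 1.61 and Ifnb1 at 0.

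Among the sensors, Tlr3 (ENSMUSG00000031639, chromosome 8, 45395665 to 45411080, minus strand) was at 16.52 FPKM under PBS and at 22.79 FPKM under oxalate. This was the largest difference among the 10 genes, with oxalate at 1.38 times PBS (counting interval 1.30 to 1.47). The estimated reads were 2208 and 1960. On the scale log2((oxalate + 1)/(PBS + 1)), which understates differences of low genes, the change was 0.44, and 1.83% of the 10267 genes had a value at least as high. The level of Tlr3 lay at percentile 61.9 of genes above 0 in the PBS library and at 68.0 in the oxalate library. Tlr3 has 7 annotated coding transcripts, and 381 of its 5207 exon bases are shared with the antisense gene Gm45542, which is not a row of the table used here. The protocol states no strand-specific step, so reads of the pair could not be separated, and their part in the difference was not tested.

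Ddx58 (ENSMUSG00000040296, chromosome 4, 40203773 to 40239828, minus strand), which encodes RIG-I, was at 13.70 FPKM under PBS and at 15.85 FPKM under oxalate. Oxalate was at 1.16 times PBS (1.09 to 1.23), or 0.20 on the log2 scale. Ifih1 (ENSMUSG00000026896, chromosome 2, 62595798 to 62646255, minus strand), which encodes MDA5 and recognizes long double-stranded RNA, was at 1.61 FPKM in both libraries. With 415 and 267 estimated reads, a ratio from 0.854 to 1.17 was within counting error for Ifih1, so smaller differences lay below what these reads can resolve. The cytosolic sensors thus stood far apart in level: RIG-I transcripts were 8.51 times those of MDA5 in PBS (7.66 to 9.47) and 9.84 times in oxalate (8.66 to 11.25). Of the genes whose promoter windows are printed above, Ddx58 was higher in oxalate and Ifih1 was equal.

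Among the adaptors, the mitochondrial one was the most abundant. Mavs (ENSMUSG00000037523, chromosome 2, 131234063 to 131248025, plus strand) was at 26.70 FPKM under PBS and at 28.29 FPKM under oxalate, 1.06 times (1.01 to 1.11). Ticam1 (ENSMUSG00000047123, chromosome 17, 56269319 to 56276786, minus strand), which TLR3 needs to signal, was at 4.26 FPKM under PBS and at 4.00 FPKM under oxalate. Its ratio was 0.939 (0.832 to 1.06), so the difference was within counting error. Mavs was 6.27 times as high as Ticam1 in PBS (5.79 to 6.79) and 7.07 times in oxalate (6.40 to 7.84). Tlr3 itself was 3.88 times as high as its adaptor Ticam1 in PBS (3.56 to 4.22) and 5.70 times in oxalate (5.13 to 6.33). Traf3 (ENSMUSG00000021277, chromosome 12, 111166370 to 111267153, plus strand), a ubiquitin ligase shared by both routes, was at 24.10 FPKM under PBS and at 22.55 FPKM under oxalate. It was the other gene that was lower with oxalate, at 0.936 times PBS (0.901 to 0.971).

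**Figure D2:**
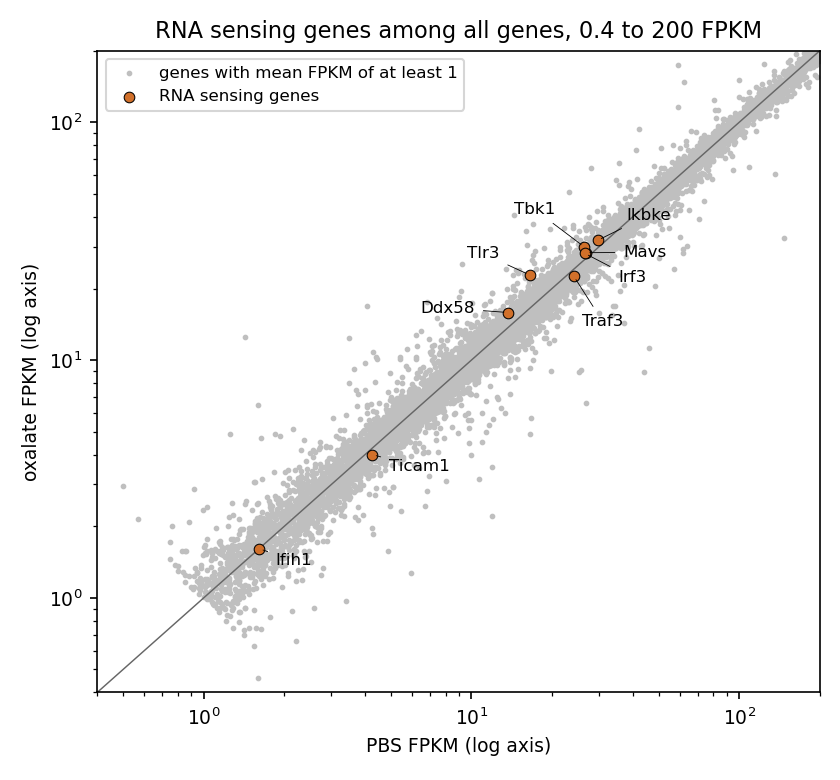
Oxalate FPKM against PBS FPKM on log axes, with genes of 1 FPKM or more on average in grey, the line of equal values, and the 9 RNA sensing genes above that mean in orange. Tlr3 lies above the bulk of genes at its level, and Ifih1 lies on the line at 1.61 FPKM.

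The kinases were expressed at levels close to those of Irf3 and Mavs. Ikbke (ENSMUSG00000042349, chromosome 1, 131254343 to 131279606, minus strand) was at 29.58 FPKM under PBS and at 31.88 FPKM under oxalate, 1.08 times (1.03 to 1.13). Tbk1 (ENSMUSG00000020115, chromosome 10, 121546455 to 121586787, minus strand) was at 26.42 FPKM under PBS and at 29.90 FPKM under oxalate, 1.13 times (1.066 to 1.201). Ikbke stood at 1.12 times Tbk1 in PBS (1.06 to 1.18) and 1.07 times in oxalate (1.005 to 1.132). IKKε is commonly described as an inducible relative of TBK1. Its transcript had the highest FPKM of the 10 in the PBS library, at 1.11 times Mavs. The transcript lengths behind the deposited FPKM are not known, and whether this rank holds with other lengths was not tested. Ikbke shares 159 and 65 of its 9018 exon bases with the antisense genes Gm28914 and Gm28913, which have no values here. Reads of these genes could not be separated, and their part in its level was not tested.

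Irf3 (ENSMUSG00000003184, chromosome 7, 44997648 to 45002848, plus strand) was at 26.47 FPKM under PBS and at 28.13 FPKM under oxalate. The interval of its ratio, 1.06 (0.983 to 1.15), included 1 with the mean length of coding transcripts but left it out with the longest coding transcript or all exons. Irf3 stood at percentiles 72.0 and 72.6 of genes above 0. Irf3 overlaps Bcl2l12, a gene on the other strand, over 88 of its 3442 exon bases, and Bcl2l12 was at 10.32 and 8.05 FPKM. Ifnb1 (ENSMUSG00000048806, chromosome 4, 88522025 to 88522774, minus strand), the interferon that active IRF3 induces, was listed at 0 in both libraries. It is a gene with 1 transcript of 750 bases, in which 1 read would be worth 0.0235 FPKM in PBS and 0.0365 FPKM in oxalate. If the listed 0 stands for no reads, a level of up to 0.0705 FPKM in PBS and 0.110 FPKM in oxalate, the worth of 3 reads, remains possible, for counting error only. The tool that made the values is not known, and whether a 0 is a lack of reads or a failed estimate was not tested for any gene listed at 0. No fold change is given for Ifnb1.

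Across the members, 9 of 10 averaged 1 FPKM or more, and the exception was Ifnb1. Of these 9, 6 were higher in oxalate (Tlr3, Ddx58, Tbk1, Ikbke, Irf3 and Mavs), 2 were lower (Ticam1 and Traf3) and 1 was equal (Ifih1), while 50.6% of all 10267 genes were higher in oxalate. Folds were counted on the log2 scale with 1 FPKM added. None reached a 2-fold difference, against 0.653% of all genes, and none reached 1.5-fold, against 1.99% of all genes. A total of 8 of the 9 differed by less than 1.2-fold, as did 90.1% of all genes, and Tlr3 was the exception. The interval left out a ratio of 1 for 6 of the 9 genes, namely Tlr3, Ddx58, Tbk1, Ikbke, Mavs and Traf3, against the 48.8% of all genes given above. The median log2 fold change of the 9 was 0.085, and that of all 10267 genes was 0.0031.

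**Figure D3:**
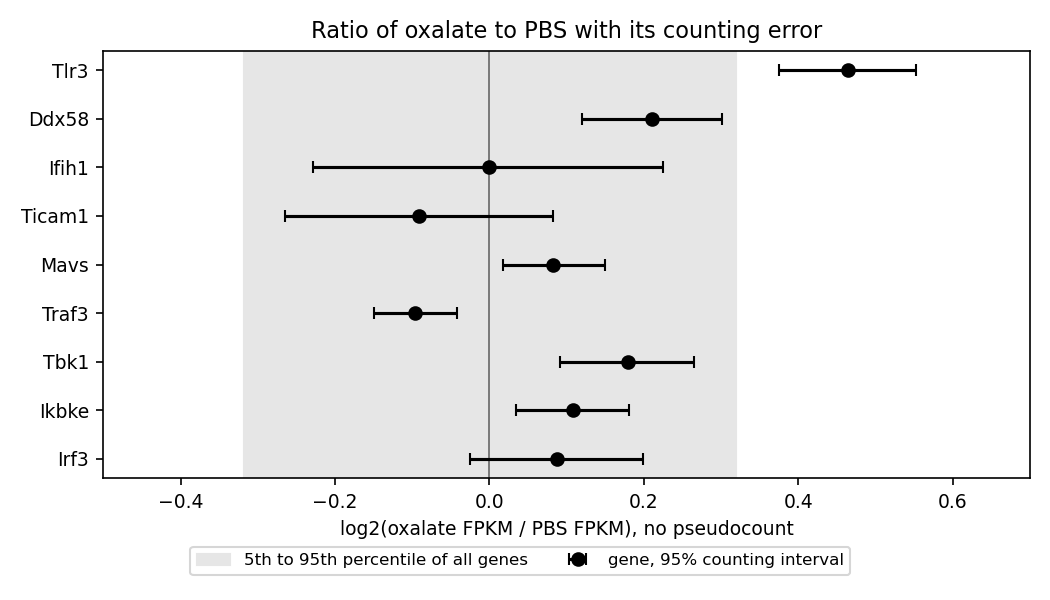
Log2 ratio of oxalate to PBS FPKM without a pseudocount for the 9 genes above a mean FPKM of 1, with bars for the 95% counting interval and a grey band from the 5th to the 95th percentile of all genes (-0.318 to 0.32). Tlr3 and its interval lie outside the band, and the other 8 ratios lie inside it.

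TLR3 was the most abundant Toll-like receptor transcript in both libraries. The next were Tlr4, a receptor for bacterial lipopolysaccharide, at 4.75 FPKM under PBS and at 4.11 FPKM under oxalate, and Tlr2, a receptor for bacterial lipoproteins, at 3.62 and 4.54 FPKM, and these were named after their values were seen. The 9 other receptors measured (Tlr1, Tlr5, Tlr6, Tlr7, Tlr8, Tlr9, Tlr11, Tlr12 and Tlr13) did not reach 1 FPKM in either library, and 4 of them were listed at 0 in both. Of the 15 receptors and adaptors listed besides TLR3 and TRIF, 5 averaged 1 FPKM or more, of which 2 were higher and 3 lower in oxalate, and none reached 1.5-fold (median log2 fold change -0.072). The most abundant were the adaptors that other Toll-like receptors use or that restrain them: Tollip at 32.66 and 33.59 FPKM, Myd88 at 31.15 and 29.16 FPKM, and Tirap at 27.40 and 26.02 FPKM. Ticam1, the adaptor of TLR3, was below these 3, and Ticam2, its relative in TLR4 signalling, was listed at 0 in both libraries and was also named after its values were seen.

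The list of partners and regulators of the RNA sensors held the one gene past 1.5-fold among the 53 listed genes that averaged 1 FPKM or more, on the log2 scale with 1 FPKM added. Trim25, a ubiquitin ligase that activates RIG-I, was at 8.74 FPKM under PBS and at 14.62 FPKM under oxalate, or 0.68 on the log2 scale. Its estimated reads were 2081 and 2240, and the counting interval of its log2 ratio ran from 0.66 to 0.83. Of the 11 genes of this list, 7 averaged 1 FPKM or more, of which 6 were higher and 1 lower in oxalate, and Trim25 alone passed 1.5-fold, with a list median of 0.078. Zc3hav1, an antiviral protein that binds viral RNA, was the most abundant at 28.89 and 30.56 FPKM. Prkra, which activates the kinase PKR and aids RIG-I, was the lower one, at 8.0 and 6.76 FPKM. Rnf135, another ubiquitin ligase of RIG-I, was at 1.37 and 1.92 FPKM, and it was named after its values were seen. Unc93b1, which carries TLR3 from the endoplasmic reticulum to endosomes, was listed at 0 FPKM in both libraries, also named after its values were seen. For Unc93b1, 1 read would be worth 0.0129 FPKM in PBS and 0.0201 FPKM in oxalate.

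All 18 scaffolds and regulators of the kinase complex averaged 1 FPKM or more, and 9 were higher and 9 lower in oxalate, with a median log2 fold change of 0.0010 and none past 1.5-fold. Tax1bp1, an adaptor that limits inflammatory signalling, was at 101.53 and 99.20 FPKM. Tnfaip3, which encodes the ubiquitin-editing enzyme A20, was at 66.70 and 70.75 FPKM. Ikbkb, a kinase of the NF-kB route, was at 42.00 and 43.72 FPKM. All 3 stood above each of the 10 members.

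Of 13 other nucleic acid sensors and effectors, 5 averaged 1 FPKM or more, with 3 higher and 2 lower in oxalate, none past 1.5-fold and a median of 0.075. Oas3, named after its values were seen, was at 1.02 and 1.53 FPKM. Its plain ratio of 1.5 stays under 1.5-fold once 1 FPKM is added. Adar, which edits double-stranded RNA, was at 11.60 and 13.06 FPKM. Eif2ak2, which encodes the kinase PKR, was at 9.17 and 8.28 FPKM, and the DNA sensor Cgas was at 8.78 and 8.09 FPKM. These levels lay below those of Tlr3 and Ddx58 in both libraries. Of 8 other interferon regulatory factors, 5 averaged 1 FPKM or more, with 3 higher and 2 lower, none past 1.5-fold and a median of 0.011. Irf2, which can repress interferon genes, was at 46.79 and 45.80 FPKM. Irf1, an activator, was at 27.92 FPKM under PBS and at 36.23 FPKM under oxalate, or 0.36 on the log2 scale. Irf8, named after its values were seen, had the largest change of these 5. It was at 2.43 FPKM under PBS and at 3.49 FPKM under oxalate, or 0.39 on the log2 scale. Irf7, which amplifies interferon production and was named after its values were seen, was at 0.99 and 0.71 FPKM, far below Irf3.

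The receptor side of the interferon response was measured at higher levels than the interferon genes, which were listed at or near 0. Of 17 interferon and receptor signalling genes, 9 averaged 1 FPKM or more, and 5 of these were higher and 4 lower in oxalate, with a median of 0.024 and none past 1.5-fold. The largest change of these 9 was that of Socs1, named after its values were seen. Socs1 was at 6.12 FPKM under PBS and at 4.31 FPKM under oxalate, or -0.42 on the log2 scale. Jak1, the receptor-bound kinase, was at 46.43 and 44.99 FPKM, and the receptor subunits Ifnar2 and Ifnar1 were at 25.16 and 27.89 FPKM and at 19.85 and 20.46 FPKM. Like Ifnb1, 7 of the 8 other interferon genes listed were at 0 in both libraries, and Ifne was listed at 0.04 FPKM in oxalate, an estimated 1 read.

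The 16 listed transcripts that IRF3 or interferon induce were at 3.50 FPKM or less in both libraries, although other genes known to respond to interferon, such as Ddx58, Irf1 and Adar above, were higher. Of the 16, 4 averaged 1 FPKM or more, of which 1 was higher and 3 lower in oxalate, with none past 1.5-fold. The median log2 fold change was -0.21 over these 4, their mean was -0.071, and the median over all 16 was -0.043. Isg15, a ubiquitin-like protein, was the highest at 3.50 FPKM under PBS and at 2.61 FPKM under oxalate, from 150 and 72 estimated reads (counting interval of the log2 ratio -0.85 to -0.0090). Ifit2, which blocks viral translation, was at 2.51 and 1.83 FPKM. Oasl2, a relative of the antiviral OAS enzymes, was higher in oxalate, at 1.03 and 1.76 FPKM, from 80 and 88 estimated reads, a plain ratio of 1.71 that stays under 1.5-fold once 1 FPKM is added. Every member except Ifih1 and Ifnb1 stood above the highest of these 16 transcripts in both libraries. Ccl5, a chemokine gene named after its values were seen, fell from 0.60 FPKM, an estimated 18 PBS reads, to a listed 0 in oxalate. Usp18, Herc6 and Ifit3, also low and also named after their values were seen, were higher in oxalate beyond counting error. Usp18 rose from 0.14 to 0.41 FPKM, with 9 and 17 estimated reads. Herc6 rose from 0.49 to 0.65 FPKM. Ifit3 rose from a listed 0 to 0.13 FPKM, an estimated 8 reads. The low transcripts of this list thus moved in both directions.

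**Figure D4:**
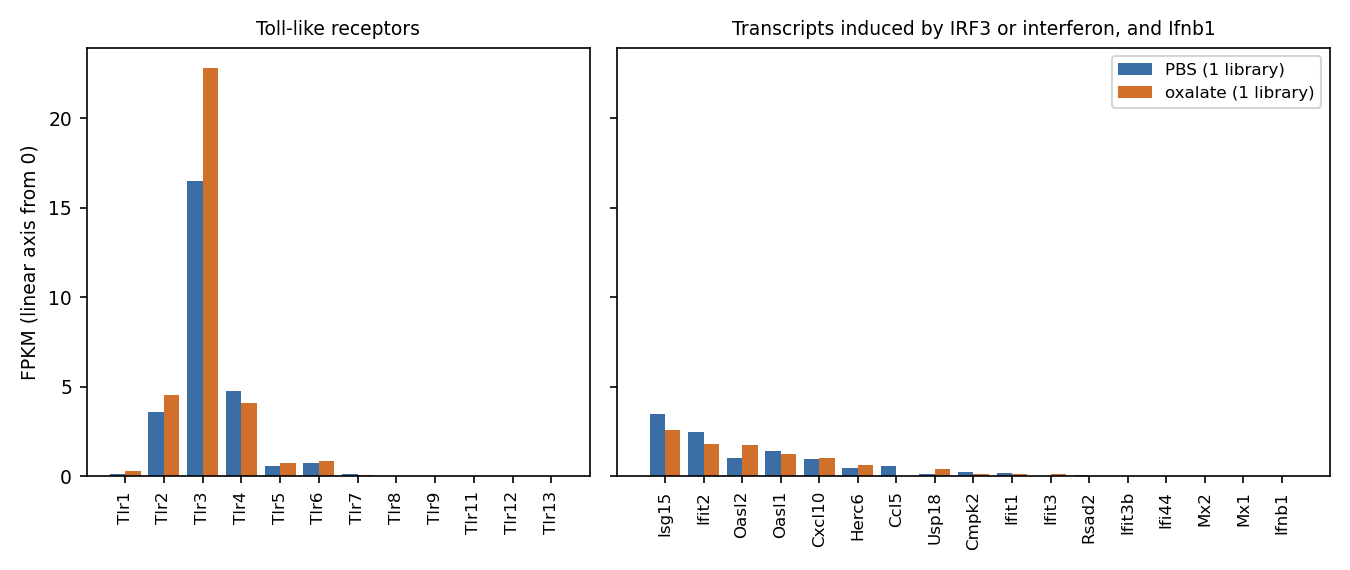
FPKM on a shared linear axis from 0 for the 12 Toll-like receptors (left) and for 16 transcripts induced by IRF3 or interferon with Ifnb1 (right), with 1 bar per library. Tlr3 is the tallest bar in each library, and no induced transcript exceeds 3.50 FPKM.

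Over the 7 lists together, 53 of 95 genes averaged 1 FPKM or more, of which 29 were higher and 24 lower in oxalate. None reached 2-fold, against 0.653% of all genes, and Trim25 was the gene that passed 1.5-fold, against 1.99% of all genes. The median log2 fold change of the 53 was 0.013.

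**Figure D5:**
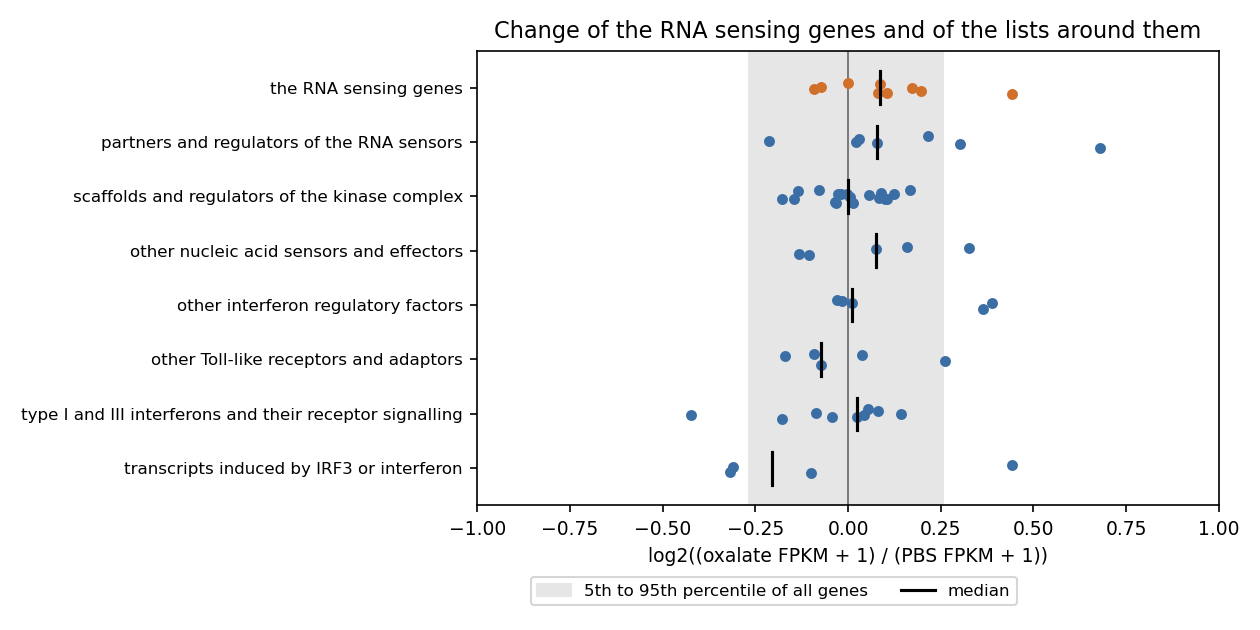
Log2((oxalate FPKM + 1)/(PBS FPKM + 1)) of the 9 RNA sensing genes (orange) and of genes averaging 1 FPKM or more in 7 lists around them (blue), with a black line at each median and a grey band from the 5th to the 95th percentile of all genes (-0.268 to 0.255). Trim25 is the point furthest right at 0.68, and Tlr3 is at 0.44.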

How the data were processed

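Polyadenylated RNA of 4T1 cells was reverse transcribed from random primers for Illumina sequencing. The authors deposited FPKM values with 2 decimals, 1 column per library. Per the submitters' processing notes, Bowtie2 2.2.8 and TopHat2 2.1.1 were used; their roles, the quantification tool, genome build and annotation are not given in the sources used here. Names were found for 21848 of 21911 identifiers in a reference name table, and lengths and positions were read from GENCODE M21 (GRCm38).

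Reads were estimated as FPKM times the mean length of coding transcripts, divided by the FPKM of 1 read in 1 kb. This step was 0.0176 for PBS and 0.0274 for oxalate, fitted to low values of 100 and 90 genes with 1 transcript of at most 700 bases. Since the quantification tool is unknown, reads are estimates. The fold change used a pseudocount of 1, and genes averaging 1 FPKM or more were compared. A gene was called at 2-fold, and 1.5-fold was also counted. There is no replicate, so no test was run. Named were all members and, of each list, genes past 1.5-fold and the 3 with the highest mean FPKM; others are marked, and 1 gene that the rule names is not reported here. Members and lists were chosen with earlier results of these data known. No gene was sought for a pattern like a member's, since 2 libraries give only 1 ratio. A protein motif planned for the members was not analysed here. Scripts were tested on simulated data. Alternatives covered the pseudocount, rescaling, filters, thresholds, the mean for the median, and transcript lengths. Calculations ran in Python 3.11.15 with scipy 1.17.1, pandas 2.3.3 and numpy 2.4.6, and plots in matplotlib 3.10.9.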

Additional observations from a re-analysis of the deposited data

How the results depend on the processing

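No paired analysis was possible because each group has 1 library, and for the same reason no replicate could be left out. The 9 members with a measured ratio kept their direction under 2 smaller pseudocounts (0.1 and 0.001) and 2 rescalings, except that Ifih1 was at 0.015 after rescaling to TPM, in which the median of all genes also moved to 0.023. The log2 fold change of Tlr3 ranged from 0.441 to 0.471, and none of the 40 values, taken over all 10 members, moved beyond counting error. Those of Ifnb1, listed at 0 in both libraries, could not move and have no counting interval. No member passed the threshold under any of the 7 alternatives for it. The largest plain ratio among them was 1.38, for Tlr3. A higher threshold, a stricter filter or a smaller pseudocount therefore could not have raised this count. Among the listed genes the count of 0 became 1 at 1.5-fold. The mean over the other interferon regulatory factors was 0.144, above their median. A median and a mean differed in sign for the interferon and receptor signalling list (0.024 and -0.043), and the other nucleic acid sensors had a median of -0.015 at a mean FPKM of at least 5. With the longest transcript or all exons in place of the mean coding length, the estimated reads were 1.00 to 4.06 times as many, and the interval of Irf3 then left out a ratio of 1, which made 7 members in place of 6. The counting intervals of Ifih1 and Ticam1 included a ratio of 1 under all 3 lengths.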
